A study of Homo sapiens with 4 samples.

Results

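The transcripts described here encode 36 proteins that the liver releases into plasma: carriers, clotting factors, their inhibitors, and complement. They were taken by gene symbol from the deposited table of coding genes, and all 36 of the 36 symbols were found among its 19739 genes. The samples were labelled as HepG2 and Huh7, 2 lines derived from human liver cancer, each with 1 untreated library and 1 library from cells given RSL3@O2-ICG NBS (a preparation carrying RSL3, a compound that inhibits the lipid peroxidase GPX4) and low-frequency ultrasound for 24 h. No group with ultrasound alone, RSL3 alone or the carrier alone was analysed here. Both lines were grown in DMEM with fetal bovine serum, per the labels. Each of the 4 groups held 1 library, so a difference between treated and untreated cells of a line has no replicate check and no p-value.

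Levels are in FPKM: fragments counted on a gene, divided by transcript length in kilobases and by the library's fragments in units of 1000000. The depth inferred from the smallest values was 22.9 to 26.4 per library in units of 1000000 fragments, and 1 fragment on a transcript of 1 kb was worth 0.0379 to 0.0437 FPKM. A gene was counted as measured in a line where it reached 1 FPKM in at least 1 of the line's 2 libraries. The libraries labelled HepG2 went against their label: 7 of 8 other hepatocyte markers lay below 1 FPKM in each of them, and they are called HepG2-labelled throughout. The exception was CPS1, a urea cycle enzyme, at 171 FPKM untreated and 74.8 FPKM treated. In Huh7, 6 of the 8 markers were measured. Among markers of other cell types, the 8 fibroblast and stellate cell genes summed to 7.47 and 11.2 FPKM in the HepG2-labelled libraries (untreated, then treated) and to 7.41 and 3.04 FPKM in Huh7. Of these 8, 4 reached 1 FPKM in the HepG2-labelled pair and 1 in Huh7. The 7 endothelial genes summed to 0.11 and 1.16 FPKM, and to 0.52 and 0.21 FPKM, with 1 and 0 reaching 1 FPKM. The 8 genes of blood cells and macrophages summed to 3.12 and 24.3 FPKM, and to 19.9 and 7.21 FPKM, with 2 and 3 reaching 1 FPKM. CD68 (20.7 FPKM in treated HepG2-labelled cells) and CD14 (15.1 FPKM in untreated Huh7) held most of the larger sums. Other endothelial and blood genes that reached 1 FPKM were TIE1, HBA1 and LYZ. TIE1 stood at 1.06 FPKM in treated HepG2-labelled cells, HBA1 at 1.69 and 3.36 FPKM in the HepG2-labelled libraries, and LYZ at 4.11 FPKM in untreated Huh7. KDR, PTPRC, CD163 and CD3E of the same lists were listed at 0 in all 4 libraries.

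Hepatocytes make most proteins of plasma. Albumin and the other carriers move lipids, metals, hormones and haem. The clotting factors are mostly zymogens cut in sequence until thrombin turns fibrinogen into fibrin, while antithrombin, heparin cofactor II and the protein C system restrain them. Complement is a separate cascade centred on the cleavage of C3. Transcription of these genes in liver depends on regulators such as HNF4A and the C/EBP family.

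Of the 36 genes, 26 were measured in Huh7 and 7 in the HepG2-labelled libraries. In Huh7, 24 of the 26 had a lower value after treatment, beside 41.2% of all measured coding genes. KNG1, HPX, SERPIND1 and AFP were at least 2-fold lower, beside 2.19%. In the HepG2-labelled libraries the 36 genes were mostly at or near 0. With 1 FPKM added to each value, F12 alone of the 7 measured passed 2-fold, with a higher value, beside 6.7% of all measured coding genes. C5 passed 2-fold in plain FPKM only (1.36 untreated and 2.80 treated).

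The upstream sequences of the albumin and fibrinogen neighbourhoods are shown first, because these 5 genes are among the most abundant in Huh7 and lie in 2 clusters on chromosome 4. Each sequence is the 250 bases before the transcription start in RefSeq (GRCh38.p14), written 5′ to 3′ on the gene's own strand. Capitals mark exact matches, on either strand, to the C/EBP motif TTGCNNAA.
ALB, chr4:73404037-73404286, plus strand: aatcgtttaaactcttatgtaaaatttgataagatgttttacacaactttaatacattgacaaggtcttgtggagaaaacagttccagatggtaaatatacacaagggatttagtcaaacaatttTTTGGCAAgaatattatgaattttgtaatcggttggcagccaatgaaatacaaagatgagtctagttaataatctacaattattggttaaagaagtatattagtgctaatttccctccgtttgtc
AFP, chr4:73435971-73436220, plus strand: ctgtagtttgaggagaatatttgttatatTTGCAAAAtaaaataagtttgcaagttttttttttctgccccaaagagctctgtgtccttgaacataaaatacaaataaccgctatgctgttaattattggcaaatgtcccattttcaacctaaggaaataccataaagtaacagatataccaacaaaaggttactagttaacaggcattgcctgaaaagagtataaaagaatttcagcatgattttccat
FGA, chr4:154590743-154590992, minus strand: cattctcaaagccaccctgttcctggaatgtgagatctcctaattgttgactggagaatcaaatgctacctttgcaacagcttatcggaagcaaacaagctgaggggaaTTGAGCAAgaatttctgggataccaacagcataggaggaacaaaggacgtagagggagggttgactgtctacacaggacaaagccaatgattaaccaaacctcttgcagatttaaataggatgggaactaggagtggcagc
FGB, chr4:154562730-154562979, plus strand: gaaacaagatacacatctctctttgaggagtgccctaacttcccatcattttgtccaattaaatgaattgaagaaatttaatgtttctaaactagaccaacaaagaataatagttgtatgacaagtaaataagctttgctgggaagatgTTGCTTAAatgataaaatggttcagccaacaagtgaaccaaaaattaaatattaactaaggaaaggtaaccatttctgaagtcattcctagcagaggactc
FGG, chr4:154612657-154612906, minus strand: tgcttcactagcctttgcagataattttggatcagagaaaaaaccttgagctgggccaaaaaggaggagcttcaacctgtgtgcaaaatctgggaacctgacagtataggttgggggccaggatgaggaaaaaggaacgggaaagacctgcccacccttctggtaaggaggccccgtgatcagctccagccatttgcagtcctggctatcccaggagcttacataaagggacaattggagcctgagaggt
The ALB, AFP, FGA and FGB sequences each hold 1 C/EBP match, and FGG holds none. Counted from the transcription start, the match begins at position -125 in ALB, -221 in AFP, -141 in FGA and -101 in FGB. The deposited table begins ALB 7173 bases and AFP 5083 bases upstream of these starts, where GENCODE 29 also begins them. A match describes letters only; binding was not measured in these samples.

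RefSeq promoters were found for 30 of the 36 genes (40 windows of 300 bases, from 250 before to 50 after a start). The C/EBP motif was in 12 of these 40 windows (30.0%), for 11 genes, beside 10.5% of all 35116 promoters. The HNF4 motif CAAAGTCCA was in 2 windows (5.0%), those of AHSG and F10, beside 0.384%. The TATAAA motif was in 6 windows (15.0%), for AFP, CFB, F13B and RBP4, beside 11.5%. Genes with a C/EBP match ranged in untreated Huh7 from KNG1 at 7.33 FPKM to ALB at 883 FPKM. Genes with a promoter and no match included F13B at 0.0429 FPKM, below this range. F10 at 14.6, C5 at 81.3 and FGG at 145 FPKM, also without a match, lay within it. Whether a match goes with level was not tested.

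The levels of the genes separated the lines. Their summed FPKM was 58.6 and 73.1 in the untreated and treated HepG2-labelled libraries, 0.017% and 0.021% of all coding FPKM. In Huh7 the sums were 3651 and 2693 FPKM, 0.987% and 0.713% of the total. Below 1 FPKM lay 30 and 29 of the 36 genes in the HepG2-labelled libraries, and 10 in each Huh7 library. Listed at 0 were 20 and 18 genes against 3 and 4. Of all 19739 coding genes, 11156 and 11696 reached 1 FPKM in the HepG2-labelled libraries, and 11444 and 11715 in Huh7. Listed at 0 among all coding genes were 5153 and 4436 against 4553 and 4526. HNF4A, a regulator of hepatocyte genes, stood at 0.449 and 0.166 FPKM in the HepG2-labelled libraries and at 12.3 and 8.95 FPKM in Huh7.

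**Figure D1:**
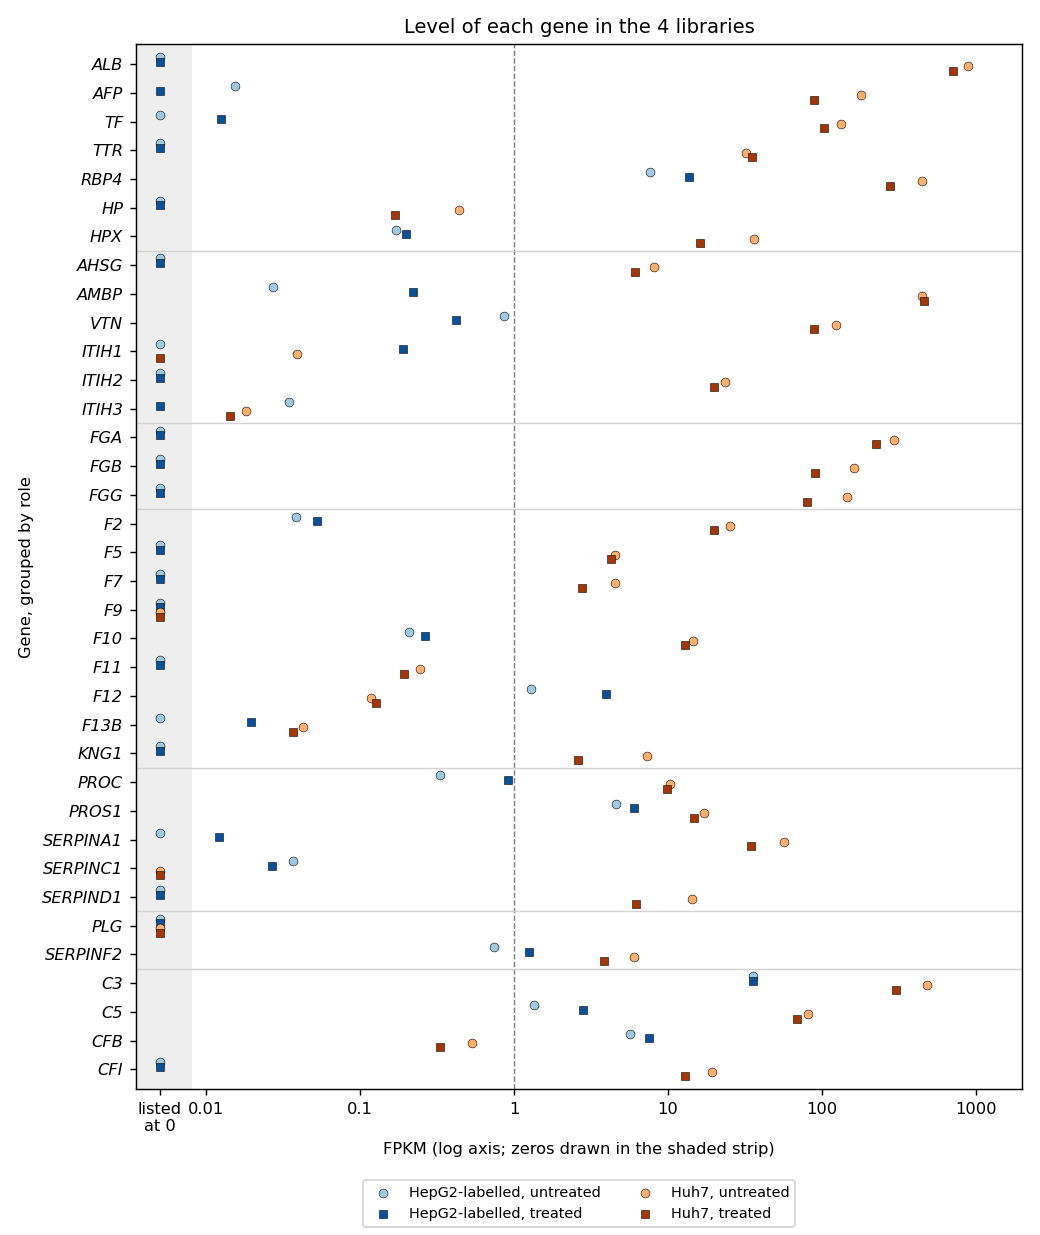
Level of each of the 36 genes in FPKM (log axis) in the 4 libraries, grouped by role, with genes listed at 0 drawn in the shaded strip. Circles are untreated and squares treated libraries, and the dashed line is 1 FPKM. Most Huh7 points lie to the right of the line and most HepG2-labelled points to the left, with F12 and CFB the other way round.

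Both Huh7 libraries lay above both HepG2-labelled libraries for 29 of the 36 genes. Among the 28 that reached 1 FPKM in any library this held for 26, beside 31.9% of all 13030 such coding genes. Both lay below for F12, CFB and SERPINC1, though SERPINC1 (antithrombin) never exceeded 0.0366 FPKM. The other 4 genes overlapped between lines or were listed at 0 throughout. Genes below 1 FPKM in every library numbered 8: HP, ITIH1, ITIH3, F9, F11, F13B, SERPINC1 and PLG. F9 and PLG were listed at 0 in all 4 libraries.

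The difference between lines was tested with limma on log2(FPKM + 1) of the 4 libraries, with treatment as a second term and Benjamini-Hochberg adjustment over 13030 genes. Its error for a gene blends how unlike the treatment moved the lines with the same quantity in other genes of like level. The shared part weighed 6.56 degrees of freedom, against 1 for the gene itself. Neither part is the spread of repeat cultures. Of the 36 genes 28 entered the fit; 26 were called higher in Huh7, where 18.6% of all genes were, and 2 lower, where 19.1% were. A gene that entered through its level in 1 line alone was bound to differ, so these counts describe the genes and are not support for a difference. ALB differed by 9.63 on this log2 scale (SE 0.230). It was listed at 0 in both HepG2-labelled libraries and entered through Huh7 alone, so no p-value is given for it. The smallest called difference was that of PROS1, 1.43 (SE 0.268, adjusted p = 0.00511 by limma). F12 was lower in Huh7 by a log2 difference of -1.58 (SE 0.359), and CFB by -2.40 (SE 0.302). Both genes entered through the HepG2-labelled libraries alone, so no p-value is given for them either.

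Among the carriers, ALB (albumin, ENSG00000163631, chr4:73397114-73421482, plus strand) was the most abundant of the 36 genes in Huh7, at 883 FPKM untreated and 711 FPKM treated. It was listed at 0 in both HepG2-labelled libraries. RBP4, which carries retinol, was the carrier with a measured level in both lines: 443 and 275 FPKM in Huh7, and 7.65 and 13.7 FPKM in the HepG2-labelled libraries. The treated value was thus lower in Huh7 and higher in the HepG2-labelled pair. AFP (alpha-fetoprotein, the fetal relative of albumin, ENSG00000081051, chr4:73431138-73456174, plus strand) stood at 178 and 88.2 FPKM in Huh7, against 0.0154 and 0 FPKM in the HepG2-labelled libraries. TF (transferrin, the iron carrier) stood at 133 and 103 FPKM in Huh7, and at 0 and 0.0125 FPKM in the other line. HPX (hemopexin, which binds free haem, ENSG00000110169, chr11:6431049-6442617, minus strand) stood at 36.02 and 16.2 FPKM in Huh7 and at 0.170 and 0.200 FPKM in the HepG2-labelled libraries. All 3 stood in both Huh7 libraries above both HepG2-labelled ones. TTR (transthyretin, which carries thyroxine and the RBP4 complex) was at 32.1 and 35.3 FPKM in Huh7 and listed at 0 in the other line. HP (haptoglobin, which binds free haemoglobin) reached 0.443 and 0.168 FPKM in Huh7 and was listed at 0 in the HepG2-labelled libraries.

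The matrix-binding group joins the inter-alpha-trypsin inhibitor heavy chains, their light chain AMBP, and AHSG and VTN. AMBP was the third most abundant of all 36 genes in untreated Huh7, at 444 FPKM, and stood at 461 FPKM after treatment. In the HepG2-labelled libraries it stood at 0.0272 and 0.221 FPKM. Of its heavy chains, ITIH2 stood at 23.6 and 20.0 FPKM in Huh7, while ITIH1 (0.0391 and 0 FPKM) and ITIH3 (0.0182 and 0.0144 FPKM) were near 0 there. The light chain was thus present in Huh7 with 1 of the 3 heavy chains listed here. VTN (vitronectin, an adhesion protein of plasma and matrix) stood at 123 and 88.6 FPKM in Huh7, and at 0.856 and 0.420 FPKM in the HepG2-labelled libraries. AHSG (fetuin-A, which inhibits mineral deposition) stood at 8.08 and 6.10 FPKM in Huh7 and was listed at 0 in the other line.

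The 3 fibrinogen chains, which assemble into 1 protein, were listed at 0 in both HepG2-labelled libraries. In Huh7, FGA stood at 295 and 225 FPKM, FGB at 161 and 90.0 FPKM, and FGG at 145 and 79.3 FPKM. FGA was the highest in both libraries. Their summed level was 601 FPKM untreated and 394 FPKM treated.

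Clotting factors were lower in level than fibrinogen. F2 (prothrombin) stood at 25.2 and 20.0 FPKM in Huh7, F10 at 14.6 and 12.9 FPKM, F5 (the cofactor of F10) at 4.52 and 4.26 FPKM, and F7 (which starts clotting with tissue factor) at 4.51 and 2.77 FPKM. In the HepG2-labelled libraries F5 and F7 were listed at 0, F2 stood at 0.0385 and 0.0524 FPKM and F10 at 0.208 and 0.266 FPKM. KNG1 (kininogen, the source of bradykinin, ENSG00000113889, chr3:186717276-186744410, plus strand) stood at 7.33 and 2.62 FPKM in Huh7 and was listed at 0 in the other line. The remaining factors were low in Huh7: F11 stood at 0.247 and 0.192 FPKM, F13B at 0.0429 and 0.0367 FPKM, and F9 at 0. F12, which starts the contact pathway, had the opposite order, with 0.118 and 0.128 FPKM in Huh7 and 1.296 and 3.94 FPKM in the HepG2-labelled libraries. The F3 gene for tissue factor, the partner of F7, stood at 7.71 and 4.39 FPKM in the HepG2-labelled libraries and at 1.98 and 2.02 FPKM in Huh7. GGCX and VKORC1, which serve the vitamin K dependent modification of F2, F7, F9, F10, PROC and PROS1, were present in every library (GGCX 10.5 to 18.8 FPKM, VKORC1 29.5 to 36.1 FPKM).

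Among the inhibitors, SERPINA1 (alpha-1-antitrypsin, which inhibits neutrophil elastase) stood at 56.9 and 34.4 FPKM in Huh7, and at 0 and 0.0122 FPKM in the HepG2-labelled libraries. SERPIND1 (heparin cofactor II, a thrombin inhibitor, ENSG00000099937, chr22:20774113-20787720, plus strand) stood at 14.4 and 6.21 FPKM in Huh7 and was listed at 0 in the other line. SERPINC1 was listed at 0 in Huh7, so of these thrombin inhibitors Huh7 held transcripts of SERPIND1 only. PROC (protein C) stood at 10.4 and 9.88 FPKM in Huh7, and at 0.329 and 0.914 FPKM in the HepG2-labelled libraries. Its cofactor PROS1 (protein S) stood at 17.2 and 14.7 FPKM in Huh7, and at 4.61 and 5.99 FPKM in the HepG2-labelled libraries. In fibrinolysis, PLG (plasminogen) was listed at 0 throughout. SERPINF2, the plasmin inhibitor, stood at 5.98 and 3.85 FPKM in Huh7, and at 0.742 and 1.26 FPKM in the HepG2-labelled libraries.

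The complement genes were the best represented in the HepG2-labelled libraries, with 3 of 4 measured. C3 stood at 35.6 FPKM in both of these libraries, and at 483 and 300 FPKM in Huh7. C5 stood at 1.36 and 2.80 FPKM in the HepG2-labelled libraries and at 81.3 and 68.3 FPKM in Huh7. CFB (factor B, the protease of the alternative pathway) had the opposite order, with 5.64 and 7.55 FPKM against 0.534 and 0.331 FPKM in Huh7. CFI (factor I, which cleaves C3b) was listed at 0 in the HepG2-labelled libraries and stood at 19.3 and 12.8 FPKM in Huh7. By GENCODE 29, 45.0% of the exonic bases of CFB and 32.0% of those of CFI also belong to an overlapping coding gene (AL645922.1 and AC126283.2), so reads of these pairs could be split by the counting.

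Treated and untreated Huh7 were then compared by log2((treated FPKM + 1)/(untreated FPKM + 1)), a scale that understates the change of low genes. Of the 26 measured genes 24 had a lower treated value (92.3%), beside 41.2% of all 11945 measured coding genes. At 10 FPKM or more this held for 19 of 21 genes, beside 48.8%. At least 1.2-fold lower were 18 genes, beside 21.4%, and at least 2-fold lower were 4, beside 2.19%. None of the 26 was at least 2-fold higher, beside 3.88%. Their median log2 ratio was -0.43, and that of all measured genes 0.10. The genes share 1 pair of libraries, so they are not independent. In bulk RNA, fewer cells expressing a gene and less RNA per cell cannot be told apart.

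**Figure D2:**
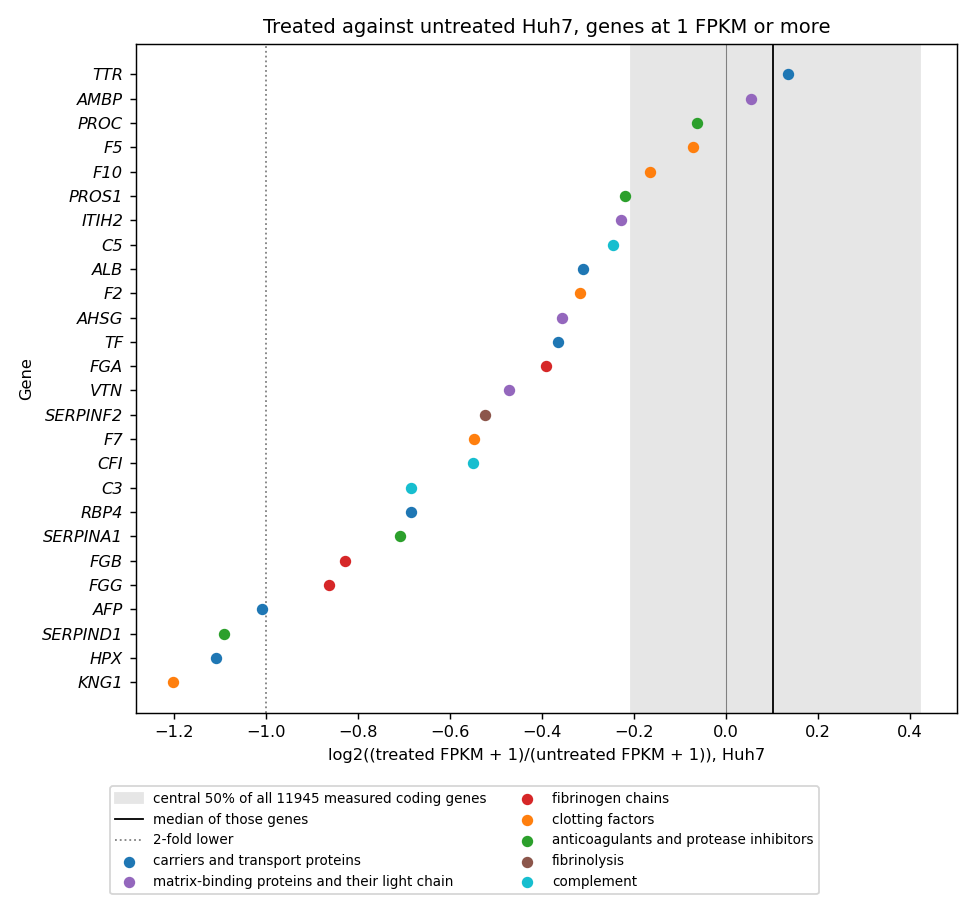
Log2 ratio of treated to untreated Huh7 (log2 of FPKM + 1) for the 26 genes at 1 FPKM or more, coloured by role. The grey band holds the central 50% of all measured coding genes and the black line is their median, 0.10. Of the 26 genes, 24 lie left of 0, and KNG1, HPX, SERPIND1 and AFP lie left of the dotted line at 2-fold.

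KNG1 had the lowest ratio, -1.20, followed by HPX at -1.11, SERPIND1 at -1.09 and AFP at -1.01. For KNG1, 15.4% of the exonic bases are overlapped by AC068631.1 on the opposite strand. AFP lay just past the 2-fold threshold, and FGG at -0.86 and FGB at -0.83 just short of it. By role, the fibrinogen chains had a median of -0.83 (3 of 3 lower), complement -0.55 (3 of 3 measured genes lower), and the carriers -0.52 (5 of 6 lower). SERPINF2 stood at -0.53, the inhibitors had a median of -0.46 (4 of 4 lower), the clotting factors -0.32 (5 of 5 lower), and the matrix-binding group -0.29 (3 of 4 lower). The role groups overlapped in their ratios. TTR (0.13) and AMBP (0.05) were the exceptions; TTR kept its sign under each scaling tried, and AMBP turned to -0.065 when libraries were scaled by size factors.

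Several of the genes are neighbours. ALB and AFP lie next to each other on chromosome 4, and their ratios were -0.31 and -1.01. In the fibrinogen cluster, FGB (chr4:154562956-154571086), FGA (chr4:154583126-154590766) and FGG (chr4:154604134-154612967) had ratios of -0.83, -0.39 and -0.86. F7 and F10 lie side by side on chromosome 13, at -0.55 and -0.17. None of these differences could be tested with 1 library a group.

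Among the other genes, C3 and RBP4 both stood at -0.68, SERPINA1 at -0.71, VTN at -0.47, TF at -0.36 and F2 at -0.32. PROC at -0.06 and F5 at -0.07 were nearly level between the libraries. TFRC, the receptor of transferrin, had a ratio of -0.80 in Huh7 (60.1 and 33.98 FPKM) and -0.79 in the HepG2-labelled pair (137 and 78.7 FPKM). Exons of VTN, F10, F11, F12, KNG1, CFB and CFI overlap another annotated gene by 1% or more. Without these genes, 20 of 22 measured genes had a lower treated value in Huh7. Of the 52 long noncoding transcripts that overlap 5 of the genes, 2 reached 1 FPKM, both in Huh7: F10-OT1 at 1.38 and 1.43 FPKM in F10, and a transcript of AC008760.2 at 2.29 and 1.9605 FPKM in C3.

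In the HepG2-labelled pair the 7 measured genes were RBP4, F12, PROS1, SERPINF2, C3, C5 and CFB. Their median log2 ratio was 0.38, beside 0.09 for all 11843 measured coding genes. F12 was at least 2-fold higher (1.11), beside 6.7% of all genes, and none was 2-fold lower, beside 2.43%. Lower by any amount was C3 alone (-0.0011), beside 43.1%, and it turned to 0.04 when libraries were scaled to 1 sum. RBP4 had a ratio of 0.76, C5 of 0.69, SERPINF2 of 0.38, CFB of 0.36 and PROS1 of 0.32. In plain FPKM the treated value of C5 was 2.067 times the untreated one, so C5 fell short of 2-fold through the pseudocount. SERPINF2, whose ratio is the median, reached 1 FPKM in the treated library alone, so its sign was bound by the filter. By GENCODE 29, 14.4% of the exonic bases of F12 lie in GRK6, a kinase gene on the opposite strand. GRK6 had a ratio of 1.01 in the same libraries (3.70 and 8.43 FPKM). In Huh7, GRK6 was higher (29.01 and 46.02 FPKM) while F12 stayed at 0.118 and 0.128 FPKM. Whether strand was kept was not given in the sources used here, and the part of GRK6 reads in the F12 value was not tested.

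Genes measured in both lines numbered 5. RBP4, PROS1, SERPINF2 and C5 had a higher treated value in the HepG2-labelled pair and a lower one in Huh7, beside 17.2% of all 10758 coding genes measured in both lines. SERPINF2 reached 1 FPKM in the HepG2-labelled pair only when treated (0.742 and 1.26 FPKM). Its higher value there was therefore bound by the filter and is no support. C3 was lower in Huh7 and level in the HepG2-labelled pair. These opposite directions were not tested. In the limma fit the treatment term called none of the 28 fitted genes and 0 of 13030 genes in all (0.0%). At an unadjusted p under 0.05 by limma there were 1534 genes, none of them among the 28. With 1 residual degree of freedom this says little about genes that moved in 1 line.

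Related genes outside the 36 were described from lists. Of 31 other plasma proteins of liver, 16 were measured in Huh7, with 14 lower by any amount and 3 at least 2-fold lower (median log2 ratio -0.52). SAA4, an apolipoprotein of the acute phase family, had a ratio of -2.24 (8.84 and 1.09 FPKM), A2M (alpha-2-macroglobulin, a broad protease inhibitor) of -1.10 and GC (vitamin D binding protein) of -1.03. In the HepG2-labelled pair 3 of the 31 were measured, with IGFBP1, which binds insulin-like growth factors, at 2.53 (4.84 and 32.8 FPKM) and LRG1 at 1.03.

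**Figure D3:**
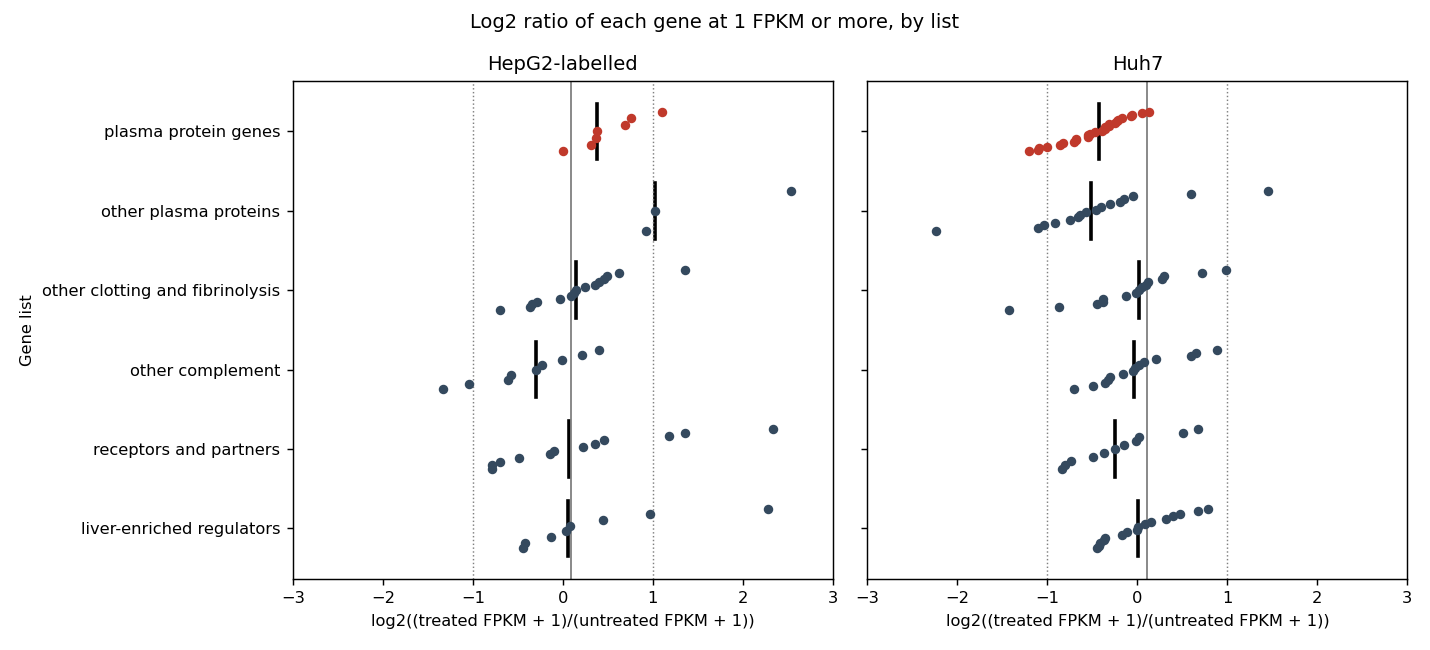
Log2 ratio of treated to untreated libraries (log2 of FPKM + 1) for each gene at 1 FPKM or more in a line, by list; thick bars are list medians, the grey line is the median of all measured genes and dotted lines are 2-fold. In Huh7 the 36-gene set has a median of -0.43 and the other plasma proteins -0.52, while the other lists drawn have medians from -0.24 to 0.02.

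The other clotting and fibrinolysis genes had a Huh7 median of 0.02, with 7 of 15 measured genes lower and 1, SERPINA5 (protein C inhibitor, -1.42, 27.7 and 9.69 FPKM), past 2-fold. In the HepG2-labelled pair 5 of 15 were lower, and PLAUR, the urokinase receptor, had a ratio of 1.36 (16.003 and 42.5 FPKM). Of the other complement genes, 8 of 14 were lower in Huh7 (median -0.04), with 0 past 2-fold. In the HepG2-labelled pair 7 of 9 were lower (median -0.30), among them C4BPB (a chain of the C4b-binding protein, -1.33, 76.6 and 29.8 FPKM) and CD59, which blocks the membrane attack complex (-1.04, 75.02 and 36.1 FPKM). Receptors and partners had medians of -0.24 in Huh7 and 0.07 in the HepG2-labelled pair. FCGRT, the receptor that recycles albumin, had a ratio of 2.33 in the HepG2-labelled pair (1.41 and 11.1 FPKM) and 0.67 in Huh7, and PLGRKT, a plasminogen receptor, 1.18 and 0.50. All 16 genes on the list of liver-enriched regulators were measured in Huh7, with a median of 0.0032, 8 lower and none past 2-fold. The list also holds STAT3 (0.01), IL6R (0.79) and IL6ST (0.40), which are not particular to liver and are counted in that median. HNF4A had a ratio there of -0.42. CEBPA was level in Huh7 (229 and 228 FPKM) and had a ratio of 2.28 in the HepG2-labelled pair (0.514 and 6.34 FPKM). The hepatocyte markers outside the 36 had a Huh7 median of -0.46, with 5 of 6 measured genes lower and 0 past 2-fold, close to the median of the 36. Of the markers of other cell types, 3 of blood cells and macrophages were measured in Huh7, and they differed in direction. CD14 had a ratio of -2.33, LYZ of -0.88 and CD68 of 1.33. Of the fibroblast markers only COL1A2 was measured there (-1.16). The 5 housekeeping genes had medians of -0.11 in Huh7 and -0.21 in the HepG2-labelled pair.

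In the authors' deposited table of KEGG pathways for Huh7, complement and coagulation cascades ranked 4 of 271 terms, with 21 of 69 genes and a p of 0.003569 (corrected p 0.2072). The genes listed there in the authors' deposited table included FGG, KNG1, SERPIND1 and SERPINF2. For the HepG2-labelled pair the authors' deposited table gave 15 of 69 genes and a corrected p of 1.0, with F13B and PROC listed, both below 1 FPKM here. In the authors' deposited table of Gene Ontology terms, acute-phase response had a corrected p of 0.04906 in Huh7 and 1.0 in the HepG2-labelled pair. Blood coagulation had a corrected p of 0.06813 and 0.001092, in the same order, in the authors' deposited table. Other related terms of the authors' deposited table for Huh7 had corrected p-values of 0.3746 (fibrinolysis), 0.4506 (blood microparticle), 0.6281 (platelet alpha granule lumen) and 1.0 (complement activation). For the HepG2-labelled pair, the authors' deposited table gave 0.3873 for platelet alpha granule lumen and 1.0 for the other 3. The rule by which genes were put into these comparisons was not given in the sources used here.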

How the data were processed

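RNA was sequenced in 4 libraries, 1 per group: untreated and treated cells of the lines labelled HepG2 and Huh7. Libraries were made with an Illumina TruSeq kit, per the labels' protocols. The authors deposited FPKM per coding gene and per long noncoding transcript, per the file headers. They also deposited enrichment tables holding p-values, raw and corrected, per the file headers. The submitters' processing notes list SAMtools 0.1.18, Picard 1.96, GATK, HISAT2, Bowtie2 2.2.8, Cuffdiff 2.1.1 and StringTie 1.3.1, with no roles. The genome build was not given in the sources used here; deposited starts matched GENCODE 29 (GRCh38) for most of the 36 genes.

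No count model was used, since FPKM are not counts. The depth was inferred from the commonest smallest step among genes with 1 annotated transcript, and intervals were not computed. Log2 ratios used a pseudocount of 1 FPKM, genes at 1 FPKM or more, and a 2-fold threshold. The only test was limma 3.58.1 in R 4.3.3, fitted to log2(FPKM + 1) with its trend option, terms for line and treatment, 1 residual degree of freedom and an adjusted p threshold of 0.05. The fit was tested on simulated data with 2 ways of drawing the spread. Large differences were recovered in both, but in most simulated runs the share of calls that were false exceeded the nominal level. Adjusted p-values near the threshold, such as those of F12, SERPINF2 and PROS1, therefore deserve caution. An initial limit of the simulation on false calls was dropped after it had failed under the first way of drawing the spread.

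The genes and lists were chosen with earlier results of these data known. Genes named outside the 36 were those past 2-fold with the largest ratios, up to 4 per list, plus TFRC, F3, GGCX, VKORC1 and HNF4A; some genes and a motif that these rules name are not reported here. CPS1, CD68, CD14, KDR, PTPRC, CD163, CD3E, HBA1, LYZ, STAT3, IL6R, IL6ST, GRK6 and overlapping transcripts were named after their values were seen. Alternatives were another pseudocount, other minimums, thresholds and scalings. Motifs were searched as exact matches on both strands.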

Additional observations from a re-analysis of the deposited data

Results flagged for a closer look

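Of the 5 genes measured in both lines, 4 had opposite directions of treatment: higher in the treated HepG2-labelled library and lower in treated Huh7. Of all 10758 coding genes measured in both lines, 17.2% had these directions. The log2 ratio in the HepG2-labelled pair minus that in Huh7 was 1.44 for RBP4 (7.65 to 13.7 FPKM against 443 to 275 FPKM). It was 0.94 for C5 (1.36 to 2.80 FPKM against 81.3 to 68.3 FPKM). It was 0.90 for SERPINF2 (0.742 to 1.26 FPKM against 5.98 to 3.85 FPKM). It was 0.54 for PROS1 (4.61 to 5.99 FPKM against 17.2 to 14.7 FPKM). SERPINF2 counted as measured in the HepG2-labelled pair through its treated library alone, so its higher value there was bound by the filter. Each line has 1 library per condition, so these differences were not tested.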

How the results depend on the processing

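Genes with a lower treated value in Huh7 numbered 24 of 26 as reported, and 5 alternatives were chosen after seeing the data. The count was 22 of 24 at a minimum of 5 FPKM and 24 of 26 when scaled to 1 sum. It was 25 of 26 with size factors and 20 of 22 without genes overlapping another. At least 1.2-fold lower, a stricter threshold, were 18 of 26. In Huh7 the number of genes lower past the threshold was 9 at 1.5-fold and 0 at 3-fold, and in the HepG2-labelled pair the number higher was 3 and 0. The shares of all coding genes at the 1.5-fold and 3-fold thresholds were not computed. At a minimum of 5 FPKM no gene was 2-fold higher in the HepG2-labelled pair (4 measured), and limma called 1 gene lower in Huh7, F12 no longer being fitted. The HepG2-labelled median was 0.69 with a pseudocount of 0.1 FPKM and 0.0 with no filter on low values. The Huh7 median was -0.31 with no filter and -0.55 with size factors, which moved the median of all measured genes from 0.10 to -0.0024. At a floor of 0.1 FPKM, 6 of the 36 genes lay below it in each Huh7 library. The sign of AMBP in Huh7 and of C3 in the HepG2-labelled pair changed with scaling. No 2-fold call of a single gene changed with a pseudocount of 0.1 FPKM or a scaling. C5 in the HepG2-labelled pair came to 0.9955 with that pseudocount, just short of 2-fold, and its plain FPKM ratio was 2.067. The treatment term of limma called 0 of the 28 fitted genes (25 at the 5 FPKM minimum) in the 5 fits run, and at most 1 of all genes. The limma fit already compares treated with untreated libraries within each line, and the labels give no replicate numbers for a further block. The cause of these shifts was not tested beyond what each setting does by construction. Genes near 0 rest on few fragments, and an exact 0 may be a failed estimate.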
